A study of Mus musculus with 3 samples.

Results

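The genes described here are the 3 Runx transcription factor genes, Runx1, Runx2 and Runx3, and Cbfb, the gene of their shared partner protein. They were chosen by name, and all 4 were present among the 22457 genes counted. The study profiled polyA plus RNA of mouse regulatory T cells, the CD4 T cells that restrain other immune cells and are marked by the transcription factor Foxp3. They came as primary cells from adults 4 months old, and the labels give no treatment, genotype or strain, record no sex and trace the cells to haematopoietic cells of the bone marrow. There was 1 group of 3 libraries, numbered in the labels as technical replicates of 1 biological replicate, so that no conditions could be compared and every p-value measures the spread between these libraries, not between animals.

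Runx proteins bind DNA through a conserved Runt domain, and Cbfb, which does not itself bind DNA, joins that domain and strengthens its hold on DNA. Runx1 is known for its role in blood stem cell formation and T cell development, Runx2 for bone formation, and Runx3 for the CD8 T cell and natural killer cell lineages. In regulatory T cells, Runx and Cbfb complexes bind regulatory elements of Foxp3 and are needed to hold its expression. Each Runx gene has a distal and a proximal promoter, and the gene counts used here do not separate them.

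The start regions of the Runx genes share a short stretch that resembles a pair of Runx binding sites, shown here because it is common to the 3 factors and lies in the part of each gene where its distal transcripts begin. RefSeq windows of 300 bases around annotated start sites (GRCm38.p6, 250 bases before to 50 after) were available for all 4 genes, with 6 windows in all. The longest run of letters common to a window of each Runx gene was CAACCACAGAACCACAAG, in capitals below, and 30 bases around it read as follows on the strand of the gene.
Runx1 (chr16:92826025-92826054, minus strand): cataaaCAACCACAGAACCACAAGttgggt
Runx2 (chr17:44814583-44814612, minus strand): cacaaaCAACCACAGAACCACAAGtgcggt
Runx3 (chr4:135120503-135120532, plus strand): gtccctCAACCACAGAACCACAAGgccagg

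Counted from the annotated start site, the run began at 26 in Runx1, at 21 in Runx2 and at -136, ahead of the site, in Runx3. In GENCODE M21 the 30 bases of Runx1 lay in an exon outside the coding sequence. Those of Runx2 lay in coding sequence of at least 1 transcript model, and those of Runx3 lay ahead of the gene. Searched on both strands, the 18 letters were found in 4 of 32851 windows (0.0122%), and the fourth was the start window of Gm16225, which runs opposite to Runx3 and overlaps its window (chr4:135120327-135120626). The run was found in these same windows, so its rarity in other genes is a description. The shorter Runx core TGTGGT, which the run holds on its other strand, occurred in 16.8% of all windows. It was in the 3 windows with the stretch and in none of the other 3, which are the second windows of Runx1 and Runx3 and the window of Cbfb. Those other 3 were rich in CpG (observed to expected ratio 0.988 to 1.01, GC content 69.0% to 77.3%), whereas the ratio was 0.137, 0.143 and 0.264 in the windows of Runx1, Runx2 and Runx3 that hold the stretch. A match in letters is not evidence of binding.

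The coding sequences of the Runx genes resemble each other, which bears on whether reads of 1 gene could be counted for another. Over aligned bases, identity was 77.1% between Runx1 and Runx3, 75.9% between Runx2 and Runx3 and 74.0% between Runx1 and Runx2. In the most alike 60-base stretch of the 3 genes (coding bases 232 to 291 of Runx1, 568 to 627 of Runx2 and 247 to 306 of Runx3), 54 bases were the same in all 3. Capitals mark the 6 positions that differ.
Runx1: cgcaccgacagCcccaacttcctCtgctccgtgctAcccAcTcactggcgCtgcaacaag
Runx2: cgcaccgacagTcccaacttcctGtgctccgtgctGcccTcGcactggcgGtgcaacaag
Runx3: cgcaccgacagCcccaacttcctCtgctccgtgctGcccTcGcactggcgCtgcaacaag

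Of all stretches of 30 bases in the coding sequences, 0.657% of those of Runx1, 2.04% of Runx2 and 0.724% of Runx3 also occurred in a transcript of another gene, and none of Cbfb did. No stretch of 50 bases was shared by any of the 4 genes. The read length is not given in the sources used here.

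Total counts were 3206781, 3228215 and 2872350 in libraries 1, 2 and 3, and 3 counts, used as the floor of detection, equalled 0.936, 0.929 and 1.04 CPM, the count scaled to a total of 1000000. Intervals and floors cover counting error only. Of all genes 48.4% reached 1 CPM in every library. The markers of regulatory T cells were present, with all 9 genes of the identity list above 5 CPM in every library and Foxp3 at 150 ± 7.60 CPM (SD, n = 3, as in all values below). The receptor genes Nrp1, Cd4 and Tnfrsf18 had the highest means of that list, 828 ± 67.2, 551 ± 60.5 and 521 ± 18.5 CPM. Cd4 and Il2ra had its smallest adjusted p between the libraries (4.86e-09 and 5.63e-08, chi-square test). Each library also carried transcripts of other blood cells, and library 2 stood apart in neutrophil genes. The summed level of the 5 neutrophil markers was 1.25, 77.8 and 9.40 CPM in libraries 1, 2 and 3, and that of the 5 erythroid markers 8.11, 134 and 116 CPM.

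Runx1, the factor of blood stem cell formation, had 138, 124 and 94 counts in libraries 1, 2 and 3, or 43.0, 38.4 and 32.7 CPM, a mean of 38.1 ± 5.16 CPM. Library 1 was the highest and library 3 the lowest. The gene (ENSMUSG00000022952.17) spans 224684 bases on the minus strand of chromosome 16, from 92601466 to 92826149 (GRCm38, GENCODE M21), with 7 annotated transcripts.

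Cbfb, the common partner, had 59, 63 and 63 counts, or 18.4, 19.5 and 21.9 CPM, a mean of 19.9 ± 1.81 CPM. The 3 libraries lay close together, with a coefficient of variation of 9.06%, below the 12.7% that counting error alone gives at this depth. Cbfb (ENSMUSG00000031885.14) lies on the plus strand of chromosome 8, from 105170674 to 105217989.

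Runx3 and Runx2 were low but above the floor in every library. Runx3, the factor of the CD8 lineage, had 23, 38 and 13 counts, or 7.17, 11.8 and 4.53 CPM, with a mean of 7.82 ± 3.67 CPM. Library 2 was high and library 3 low (ENSMUSG00000070691.10, chromosome 4, 135120652 to 135177990, plus strand). Runx2, the bone factor, had 24, 13 and 20 counts, or 7.48, 4.03 and 6.96 CPM, with a mean of 6.16 ± 1.86 CPM. Here library 2 was the low one (ENSMUSG00000039153.16, chromosome 17, 44495987 to 44814797, minus strand). The ranges of Runx2 and Runx3 overlapped.

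**Figure D1:**
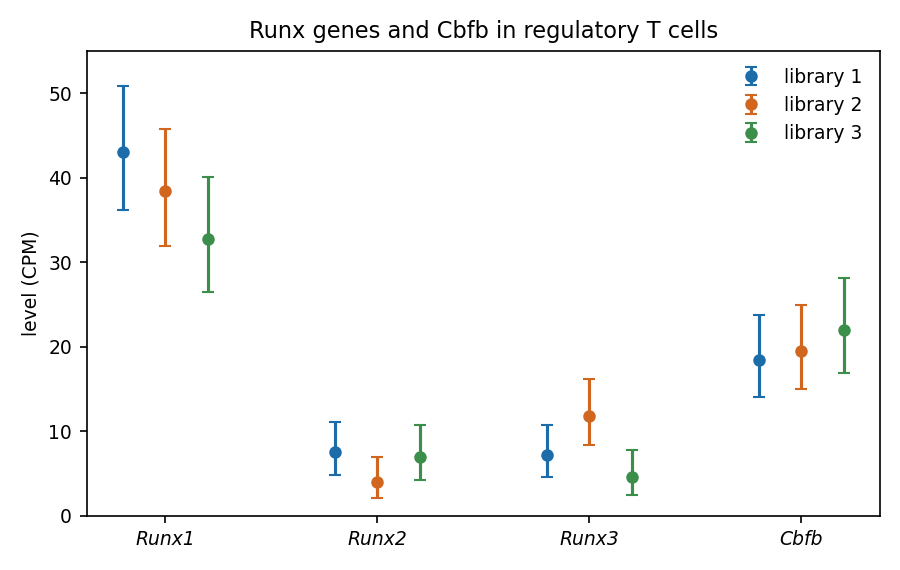
Level of each gene (vertical axis, CPM) in libraries 1, 2 and 3 (colours), with bars for the 95% exact Poisson interval of each count. Runx1 sits between 32.7 and 43.0 CPM, Cbfb between 18.4 and 21.9 CPM, and Runx2 and Runx3 at or below 11.8 CPM.

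CPM does not correct for gene length, so the order of the 4 genes was read on counts per length. Per kilobase of coding sequence Cbfb stood at 33.7 ± 3.05 CPM, Runx1 at 26.6 ± 3.61 CPM, Runx3 at 6.09 ± 2.85 CPM and Runx2 at 3.31 ± 1.00 CPM. The short coding sequence of Cbfb (592 bases, against 1431 for Runx1, 1859 for Runx2 and 1285 for Runx3) brought it above Runx1. The libraries of Cbfb (31.1, 33.0 and 37.0 CPM per coding kilobase) did not overlap those of Runx1 (30.1, 26.8 and 22.9). Those of Runx3 (5.58, 9.16 and 3.52) and Runx2 (4.03, 2.17 and 3.75) did, so these neighbours in the order did not differ beyond their spread. All libraries of Runx1 were above all those of Runx3. Set among the 14847 genes with a coding sequence and a count, Cbfb lay above 65.4%, Runx1 above 60.8%, Runx3 above 39.6% and Runx2 above 33.8% of them on this scale.

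How close Cbfb stood to Runx1 depended on the length used, and the part of each transcript that was counted is not given in the sources used here. Per kilobase of all annotated exons the levels were 5.73 ± 0.519 CPM for Cbfb, 3.16 ± 0.429 CPM for Runx1, 1.56 ± 0.733 CPM for Runx3 and 0.697 ± 0.211 CPM for Runx2, which is the same order. On this scale the libraries of Runx3 (1.43, 2.35 and 0.905) did not overlap those of Runx2 (0.847, 0.456 and 0.788). Per kilobase of the longest transcript Cbfb and Runx1 stood at 6.90 ± 0.625 and 6.49 ± 0.881 CPM, a difference smaller than either SD. Without any length correction Runx1 stood above Cbfb in every library.

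**Figure D2:**
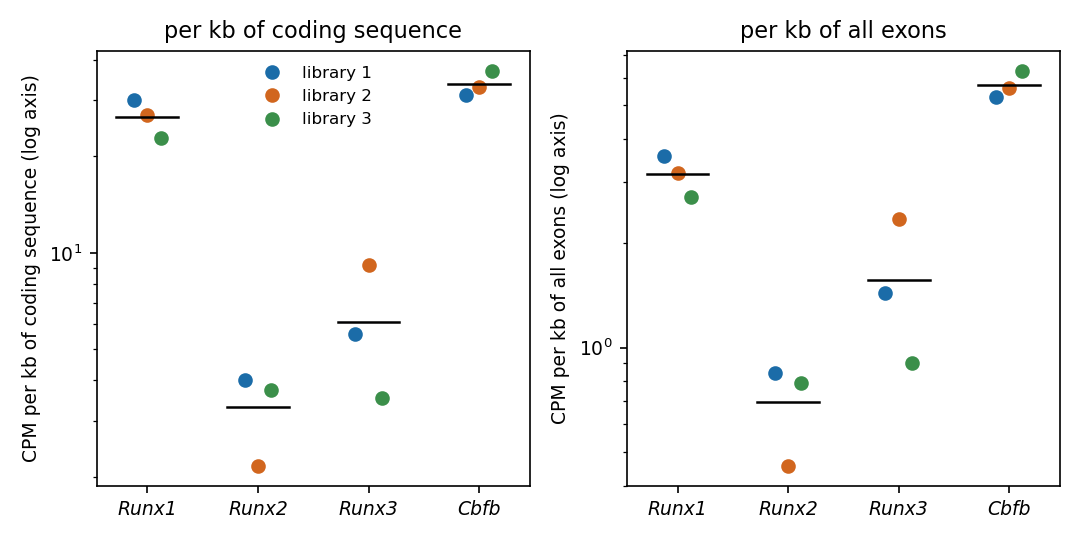
Level of each gene in libraries 1, 2 and 3 (colours) per kilobase of coding sequence (left) and per kilobase of all annotated exons (right), on log axes, with a line at the mean. In both panels Cbfb and Runx1 lie above Runx3 and Runx2, whose libraries overlap on the left.

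Runx1 made up most of the Runx transcripts. Within each library the ratio of counts per coding length does not depend on the total, and Runx1 exceeded Runx2 by 2.90, 3.63 and 2.61 on the log2 scale in libraries 1, 2 and 3. From the pooled counts, 356 of Runx1 and 57 of Runx2, this was an 8.11-fold ratio (95% exact binomial interval 6.12 to 10.9). Runx1 exceeded Runx3 by 2.43, 1.55 and 2.70, or 4.32-fold from the pooled counts (3.35 to 5.63). Per kilobase of all exons these pooled ratios were 4.59 (3.46 to 6.18) and 2.00 (1.55 to 2.61). The ratio of Runx2 to Runx3 was not of 1 sign, with -0.47, -2.08 and 0.09 in libraries 1, 2 and 3. From the pooled counts it was 0.532-fold per coding length (0.370 to 0.762) and 0.770-fold with no length correction (0.536 to 1.10). These intervals do not cover the spread between the libraries.

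As a share of the Runx sum per coding length, Runx1 took 75.8%, 70.3% and 75.9%, Runx3 took 14.1%, 24.0% and 11.7%, and Runx2 took 10.1%, 5.68% and 12.4% in libraries 1, 2 and 3. In unscaled counts Runx3 held 12.4% of 185 Runx counts in library 1 (95% exact binomial interval 8.05% to 18.1%), 21.7% of 175 in library 2 (15.8% to 28.6%) and 10.2% of 127 in library 3 (5.56% to 16.9%). The interval of library 2 overlapped both others. Per kilobase of all exons the mean share of Runx1 was lower, 58.6%, and that of Runx3 was 28.1%.

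Per coding length Cbfb and the Runx genes together were close to parity, but this depended on the length used. The log2 ratio of Cbfb to the sum of the 3 Runx genes was -0.35, -0.21 and 0.30 in libraries 1, 2 and 3, a mean of -0.09 ± 0.34. That mean was 0.09 with exon length, -0.45 with the longest transcript and -1.38 with no length correction. Cbfb to Runx1 alone was 0.05, 0.30 and 0.70, a mean of 0.35 ± 0.33, and the pooled counts gave 1.26-fold (95% exact binomial interval 1.05 to 1.50). These ratios carry no p-value, because the smallest that 3 libraries allow in a sign test is 0.25.

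Whether the libraries differed by more than counting error was asked gene by gene with a chi-square test of the 3 counts against Poisson expectation, adjusted by Benjamini-Hochberg over 10282 genes. Of all genes tested 27.6% passed an adjusted p of 0.05, and 11.1%, 8.71% and 7.75% of those tested passed and were highest in libraries 1, 2 and 3. The test detects smaller fold differences at higher counts, and this background is not matched for count. Among the 4 genes 1 passed, Runx3, a share close to the background. Runx3 in library 2 exceeded library 3 by 2.54-fold in scaled counts, with a 95% exact binomial interval of 1.32 to 5.20. Its adjusted p in the chi-square test was 0.0317. The call was lost without library 2 (adjusted p = 0.445, chi-square test) and without library 3 (0.199). It was also lost in a negative binomial model that allowed the typical spread between these libraries (adjusted p = 0.617), under which 0.914% of all genes passed.

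Runx1, Runx2 and Cbfb did not pass. For Runx1 the ratio of library 1 to library 3 was 1.32 (chi-square adjusted p = 0.230), with an interval from 1.01 to 1.73. Runx2 had a ratio of 1.91 between libraries 1 and 2 (interval 0.933 to 4.08; chi-square adjusted p = 0.268). Cbfb varied least, with library 3 at 1.19 times library 1 (interval 0.820 to 1.72; chi-square adjusted p = 0.714). The highest and lowest libraries were picked from 3, so these intervals describe a chosen pair. In simulated Poisson counts, 2-fold changes were set in 1 library for some genes with 40 to 90 counts over the 3 libraries. That is the range of Runx2 and Runx3, and 18.0% of these changes were called. Few genes were changed in the simulation, whereas 27.6% of genes tested passed in the data, so its adjusted threshold was stricter. The share called there does not tell how often such a change would be missed in these 2 genes.

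**Figure D3:**
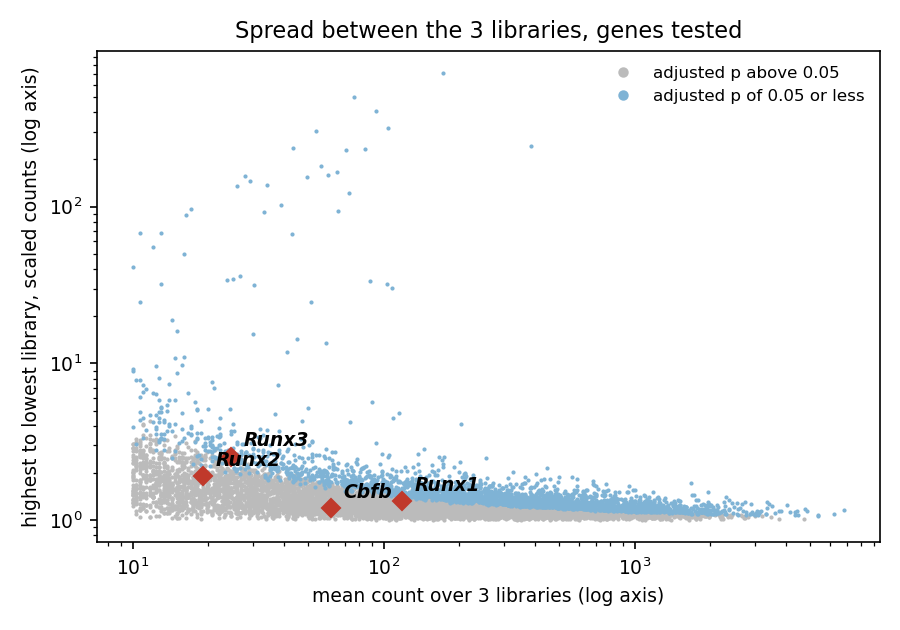
Highest library divided by the lowest in scaled counts (vertical, log axis) against mean count (horizontal, log axis) for the 10282 genes tested, with counts of 0 set to the equivalent of 0.5. Blue genes passed the chi-square test at an adjusted p of 0.05, and of the 4 labelled genes Runx3, at 2.54, lies among them.

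Markers of other cells were set beside the Runx3 values, because CD8 T cells and natural killer cells express Runx3. The 4 CD8 markers summed to 31.2, 37.5 and 42.8 CPM in libraries 1, 2 and 3, and the 5 natural killer and innate lymphoid markers to 133, 162 and 178 CPM. At 1 CPM in every library stood 4 of 4 and 4 of 5 of them. Both sums were highest in library 3, where Runx3 was lowest. In CPM Cd8a, Eomes, Gzmk, Prf1, Gzma and, narrowly, Nkg7 were highest there too, whereas Cd8b1, Klrb1c and Ncr1 were not. Cd8b1, the CD8 beta chain and the largest part of the CD8 sum, had 75, 93 and 80 counts, highest in library 2 in CPM as Runx3 was, and did not pass the test (adjusted p = 0.583, chi-square test). Cd8a, the CD8 alpha chain, had 14, 18 and 32 counts (0.0163), and the granzyme gene Gzmk had 7, 6 and 7. Among the natural killer genes Nkg7, a granule protein gene and the largest part of their sum, had 319, 399 and 356 counts (adjusted p = 0.0359, chi-square test). That was 99.5, 123.6 and 123.9 CPM, nearly level in libraries 2 and 3. The perforin gene Prf1 had 80, 86 and 85 counts, or 24.9, 26.6 and 29.6 CPM. Gzma, a granzyme of killer cells, had 17, 21 and 58 counts (adjusted p = 7.48e-08, chi-square test). The natural killer receptor genes Klrb1c, with 10, 12 and 7 counts, and Ncr1, with 0, 6 and 4, were highest in library 2. The neutrophil sum above (0 of 5 markers at 1 CPM in every library) was highest in library 2, as Runx3 was. Among its granule protein genes Ngp had 1, 96 and 3 counts, S100a8 0, 77 and 11 and Camp 3, 36 and 0. In the erythroid list 1 of 5 markers reached 1 CPM in every library. Its sum was 134 CPM in library 2 and 116 CPM in library 3, where Runx3 was lowest. The beta globin gene Hbb-bs had 0, 167 and 145 counts, the alpha globin gene Hba-a1 0, 86 and 83 and the haem synthesis gene Alas2 25, 146 and 99, while Klf1, an erythroid factor, was under 1 CPM. In CPM Hbb-bs was nearly level in libraries 2 and 3 (51.7 and 50.5), and Hba-a1 was highest in library 3 (26.6 and 28.9). Megakaryocyte markers, which accompany Runx1 in another lineage, summed to 2.49, 5.89 and 3.48 CPM, with Itga2b, the platelet integrin gene, at 8, 18 and 7 counts, Gp1bb at 0 in all libraries and Pf4, Ppbp and Gp9 under 1 CPM. The part of these cells in the Runx3 and Runx1 values was not tested, and in bulk RNA fewer cells of a type and less RNA per cell cannot be told apart.

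Cells in which Runx2 is known to be prominent were checked in the same way. Of the 6 osteoblast and stroma markers 1 reached 1 CPM in every library, and they summed to 6.86, 4.96 and 6.27 CPM. Sp7 and Ibsp, both genes of bone-forming cells, had no count in any library, and Bglap (osteocalcin) and Col3a1 were under 1 CPM. Alpl, an alkaline phosphatase gene that is not limited to bone, stood at 4.41 ± 1.26 CPM and Col1a1 at 1.18 ± 0.327 CPM. Plasmacytoid dendritic cell markers, of which 4 of 5 reached 1 CPM in every library, summed to 167, 132 and 160 CPM, but the list did not move as 1. The chemokine receptor gene Ccr9 (206, 91 and 201 counts) and Spib (12, 6 and 22) were lowest in library 2, as Runx2 was. Bst2 (266, 261 and 170 counts) was lowest in library 3, and Tcf4 (49, 67 and 56) and the defining marker Siglech (1, 2 and 11) were lowest in library 1. The part of these cells in the Runx2 values was not tested. B cell markers summed to 181, 246 and 338 CPM, and the 4 tested all passed and were highest in library 3, against 27.6% of all genes that passed and 7.75% that passed and were highest there. Among them were the B cell receptor chain genes Cd79b (230, 326 and 293 counts) and Cd79a (111, 174 and 207) and Ms4a1 (121, 155 and 239). In CPM Cd79b was nearly level in libraries 2 and 3, at 101 and 102. Monocyte and macrophage markers summed to 41.8, 31.6 and 60.6 CPM, with Csf1r at 50, 19 and 46 counts, Cd68 at 37, 23 and 46 and Lyz2 at 20, 29 and 38.

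**Figure D4:**
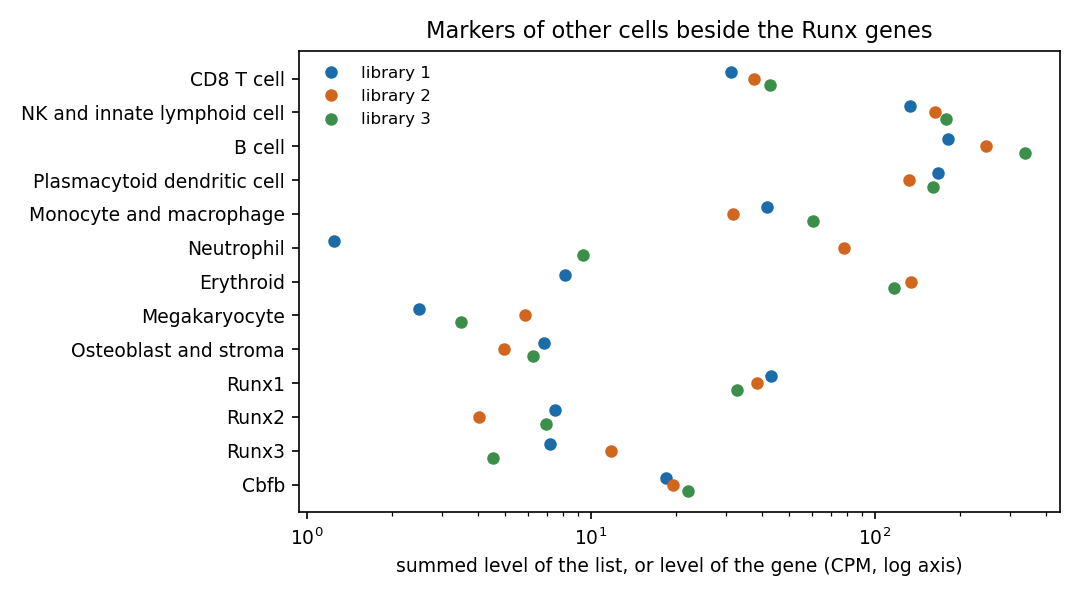
Summed level of each list of markers of other cells, and level of each Runx gene and Cbfb (horizontal, CPM, log axis), in libraries 1, 2 and 3 (colours). Neutrophil and erythroid markers spread most, from 1.25 to 77.8 CPM and from 8.11 to 134 CPM.

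The genes listed as corepressors of Runx proteins were broadly present. Of 14 genes 12 reached 1 CPM throughout. Their median was 46.4 CPM, against 18.4 CPM for all genes with a count. Ncor1, a scaffold of histone deacetylase complexes, stood at 671 ± 37.4 CPM, the scaffold gene Sin3a at 336 ± 24.0 CPM and the deacetylase gene Hdac3 at 122 ± 3.31 CPM. Of the Groucho family, which binds the carboxyl end of Runx proteins, Tle3 stood at 57.3 ± 9.05, Tle4 at 34.8 ± 9.07, Tle1 at 3.63 ± 2.01 and Tle2 at 2.83 ± 0.880 CPM, named as members of 1 family after their values were seen. Runx1t1, the corepressor gene known from a fusion with RUNX1 in leukaemia, had no count in any library, and its relative Cbfa2t3 had 0, 3 and 6 counts. Of 11 genes of this list tested 3 differed between the libraries, near the background of 27.6% of all genes tested. They were Tle5, a short Groucho relative with 220, 342 and 301 counts (adjusted p = 1.37e-05, chi-square test), Sin3a (0.00520) and Tle4 (0.00594).

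All 6 coactivators measured reached 5 CPM in every library. The median was 188 CPM. Kmt2a, a histone methyltransferase, stood at 562 ± 37.3 CPM, the acetyltransferase gene Crebbp at 422 ± 17.1 CPM and Kat6a, another acetyltransferase gene, at 248 ± 34.0 CPM. Of the 6, a count again near that background, Kat6a and Kmt2a differed between the libraries (adjusted p = 0.000108 and 0.00358, chi-square test), by 1.26-fold and 1.14-fold between the highest and the lowest library.

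Transcription factors known to bind DNA beside Runx included several that stood well above Runx1 per length. Per kilobase of coding sequence Ets1 reached 318, Gata3 249, Lef1 236 and Foxp3 116 CPM, beside 26.6 CPM for Runx1. In all, 9 of the 10 partners reached 1 CPM throughout (median 40.9 CPM). Of 9 tested 4 differed, against 27.6% of all genes tested. These shares were not matched for count, and their difference was not tested. Gata3 had 1008, 1238 and 848 counts (adjusted p = 2.14e-06, chi-square test) and Lef1 978, 881 and 938 (0.000709). Spi1, a factor of myeloid and B cells that works with Runx1 there, had 2, 8 and 2 counts.

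Genes listed as modifiers of Runx proteins were all detected, with 8 of 8 at 1 CPM or more throughout (median 40.3 CPM). Stub1, a ubiquitin ligase, stood at 153 ± 31.6 CPM, the kinase gene Hipk2 at 107 ± 22.4 CPM and the cyclin gene Ccnd3 at 74.8 ± 4.07 CPM. Of 7 tested 3 differed between the libraries, against the same 27.6%. Stub1 (433, 612 and 387 counts, adjusted p = 6.78e-07, chi-square test) and Hipk2 (264, 405 and 329 counts, 2.71e-05) were both highest in library 2. Of all genes tested 8.71% passed and were highest there. Smurf2, which also differed, was lowest in library 2 (166, 129 and 168 counts, adjusted p = 0.0119, chi-square test).

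**Figure D5:**
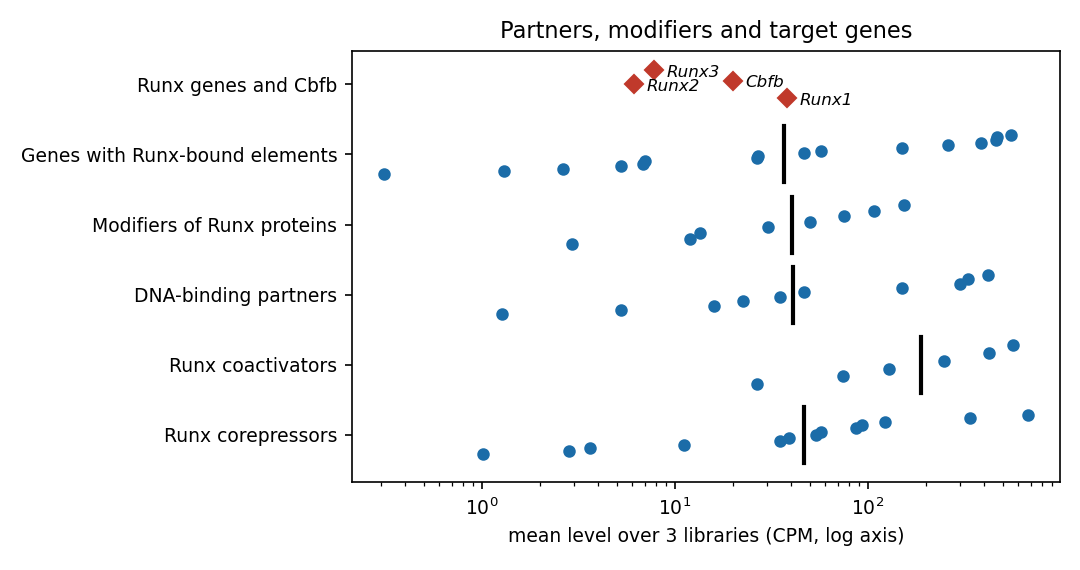
Mean level over 3 libraries (horizontal, CPM, log axis) of the genes of 5 lists around Runx function (points, with a line at each list's median) and of the Runx genes and Cbfb (diamonds). Runx1t1, with no count, is not drawn, and the medians run from 36.9 to 188 CPM.

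Genes whose enhancers or silencers are known to bind Runx in T cells ranged from abundant to scarce. Of 16 genes 15 reached 1 CPM throughout, and the median was 36.9 CPM. Genes in which Runx is known to act on regulatory T cell expression were abundant, with Foxp3 at 150 ± 7.60 CPM, the checkpoint receptor gene Ctla4 at 259 ± 10.3 CPM and the IL-2 receptor gene Il2ra at 386 ± 46.8 CPM. Cd4, whose silencer is bound by Runx factors in cells that do not express it, stood at 551 ± 60.5 CPM. Zbtb7b (ThPOK), the CD4 lineage factor that Runx represses in CD8 cells, had 151, 153 and 131 counts and did not pass the test (adjusted p = 0.973, chi-square test).

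The genes that Runx3 is known to support or silence in killer and helper cells were mixed. Itgae, the CD103 integrin gene, stood at 463 ± 64.0 CPM and Il7r at 467 ± 66.1 CPM, whereas Eomes had 4 counts in every library and Tbx21 (T-bet) had 13, 21 and 15. Il4, whose silencer binds Runx3, had 9, 12 and 4 counts, and Il2 was under 1 CPM. Of 13 genes tested 6 differed (27.6% of all genes), of which 2, 0 and 4 were highest in libraries 1, 2 and 3 (11.1%, 8.71% and 7.75% of all genes). Here too the shares were not matched for count. Gzmb, a granzyme gene, had 103, 184 and 234 counts (adjusted p = 4.33e-13, chi-square test) and Itgae 1715, 1329 and 1272 (4.08e-13). The labels number the libraries as technical replicates, and a link of these values to Runx levels was not tested.

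Promoter windows were available for 13 of these 16 genes, and 4 held the TGTGGT core on either strand, namely Il7r, Zbtb7b, Prf1 and Gzmb. Of all genes with a window 18.9% held it.

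The genes most like each of the 4 in level over the 3 libraries were found by Euclidean distance in log2 CPM per kilobase of coding sequence (0.5 added to each count) among 10087 protein-coding genes. With 3 libraries this likeness is mainly one of level. Nearest to Runx1 were Rrp8 (distance 0.0548), Egln2 (0.0596) and Ugdh (0.0885), and nearest to Cbfb were Ogg1 (0.0612), Prr14l (0.0718) and Wdr26 (0.0720). For the low genes the nearest lay farther off, with Chpt1 (0.0820), Pla2g7 (0.133) and Thnsl2 (0.147) for Runx2 and 4931414P19Rik (0.134), Arhgap11a (0.221) and Vat1 (0.239) for Runx3.

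Overlapping genes could touch the counts of Runx1 and Runx2, because the strand setting of the counting is not given in the sources used here. In GENCODE M21 the antisense gene Gm26626 shares 106 of 12025 exon bases with Runx1, and Runx2os1 shares 519 of 8837 with Runx2. Supt3 spans the distal end of Runx2 on the other strand, had 148, 180 and 144 counts, and shares no exon base with it. No overlapping gene shares an exon base with Runx3 or Cbfb. The 4 genes held 0.0102 to 0.104 counts per coding base, so none was deeply sampled.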

How the data were processed

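Libraries of polyA plus RNA from sheared RNA, per the labels, were deposited as whole-number gene counts made from an mm10 alignment with GENCODE M4, per the file descriptions. Aligner, counter, strandedness and duplicate handling: not given in the sources used here. Identifiers without version were matched to GENCODE M21 (same assembly, GRCm38), with 22195 matched and 262 not. The 4 genes and the 15 gene lists (98 distinct genes, 97 measured; Prmt1 was not analysed here) were chosen with earlier results of these data known. From the deposited counts CPM was computed by total count, and divided by the union of coding bases, of exon bases, or by the longest transcript. Ratios carry 95% exact binomial intervals. Differences between libraries were tested by Pearson's chi-square against Poisson expectation (2 degrees of freedom, library sizes scaled by TMM of edgeR 4.0.16 with factors 0.990, 1.02 and 0.993, mean count at least 10, Benjamini-Hochberg over all genes). No comparison of groups was possible, so no quasi-likelihood test was run. On simulated Poisson counts for 10282 genes the test called 88.0% of 2-fold changes at any depth and 7 of 10082 unchanged genes. For genes with 40 to 90 counts over the 3 libraries it called 18.0%. The simulation held no spread beyond counting error, so it does not give the rate of false calls in the real libraries. Tried instead were size factors of DESeq2 1.42.0, unscaled totals, other filters and thresholds, a negative binomial model, other lengths and leaving out each library.

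Named were the 4 genes, in each list the 3 genes of highest mean CPM, those under 1 CPM, up to 2 per list with the smallest adjusted p, the nearest genes in level, and genomic neighbours; other names, among them those given for their role in a list, were chosen after their values were seen. Of the genes the rule selects, 1 is not reported here. Promoter windows are RefSeq's (GRCm38.p6), coding sequences GENCODE M21's. Python 3.11.15, scipy 1.17.1 and R 4.3.3 were used.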

Additional observations from a re-analysis of the deposited data

How the results depend on the processing

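The order of Runx1 above Runx3 and Runx2 held in every library and under every length tried, while Runx3 against Runx2, Cbfb against Runx1 and the Runx3 call did not hold throughout. The number of genes differing between libraries was 94 with a negative binomial model, 1700 at an adjusted p of 0.01, and 960 to 2014 with 1 library left out; the number among the 4 genes was 0, 0, and 0 to 1. The Runx3 adjusted p was 0.0252 to 0.0447 under the other scalings and filters (a limit of 0.5 counts per coding base among them), and 0.0216 without library 1. With exon-union length the levels were 3.16 (Runx1), 0.697 (Runx2), 1.56 (Runx3) and 5.73 (Cbfb) CPM per kilobase, and with longest-transcript length 6.49, 0.953, 2.01 and 6.90. With exon-union length the log2 ratios were 2.23 for Runx1 to Runx2, 1.12 for Runx1 to Runx3 and 0.86 for Cbfb to Runx1, and the shares were 58.6%, 13.3% and 28.1% for Runx1, Runx2 and Runx3. With no length correction Cbfb to Runx1 reversed to -0.93 and Cbfb to the Runx sum was -1.38; the latter was -0.45 with longest-transcript length. These shifts follow from the lengths themselves, since the counts were the same. At 5 CPM the lists held 1 (CD8), 0 (megakaryocyte), 0 (osteoblast and stroma) and 3 (monocyte) genes, and at 3 counts 2 osteoblast and stroma genes. With 1 library left out the neutrophil list held 0 to 4, the erythroid list 1 to 4 and the osteoblast and stroma list 1 to 2 genes at 1 CPM, the higher numbers without library 1. Without library 2 the mean of Runx3 was 5.85 CPM and the log2 ratio of Runx2 to Runx3 -0.19. Depth limits Runx2 and Runx3 most, at 13 to 38 counts per library. No paired analysis was possible because the labels give 1 group.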

Other observations

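Each Runx gene has a gene of the chloride intracellular channel (Clic) family as its nearest protein-coding neighbour on 1 side in GENCODE M21. Clic6, 60222 bases from Runx1, had no count in any library. Clic5, 215814 bases from Runx2, had 1 count in each. Clic4, 35978 bases from Runx3, had 23, 30 and 30 counts, against 23, 38 and 13 for Runx3, and did not pass the test of spread between libraries (adjusted p = 0.550, chi-square test). On the other side the nearest protein-coding genes that do not overlap are Setd4, Cdc5l and Syf2. Setd4, 757307 bases from Runx1, had 120, 121 and 114 counts. Cdc5l, 577086 bases from Runx2 and beyond the overlapping Supt3, had 516, 454 and 455. Syf2, 183103 bases from Runx3, had 700, 778 and 640. Cbfb lies between Ces4a, with no count, and D230025D16Rik, with 123, 91 and 99 counts.

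All 5 genes of the natural killer and innate lymphoid list (Ncr1, Klrb1c, Gzma, Prf1 and Nkg7) held the TGTGGT core in a promoter window, against 18.9% of all genes with a window. This count was singled out after 15 lists were searched, and none of the 3 CD8 genes with a window held it.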
